A study of Petromyzon marinus with 4 samples.

Results

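Germ cells that are not oocytes were compared between the gonad of the metamorphosed male sea lamprey (Petromyzon marinus) and the gonad of the larva. The cells were chosen by their own counts of 12 genes among 111067 called barcodes of 4 single-cell libraries, and 30974 of them were used: 29018 of 40223 called barcodes of the male transformer library, 967 of 19654 of larval library 1 and 989 of 20592 of larval library 2. A called barcode had at least 1875 counts and 250 genes. It was taken as a germ cell where 7 germ genes (PIWIL1, SYCP3, LOC116937093, LOC116937220, LOC116937268, LOC116937269 and LOC116944030) together had at least 4 counts and 400 counts in each 1000000 (CPM), and as a non-oocyte germ cell where 5 oocyte genes (LOC116956100, LOC116956113, LOC116956115, LOC116947082 and LOC116947083) took under 0.4% of its counts. The 12 genes selected the cells, and their values are given as a description only.

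All libraries were 3′ single-cell RNA libraries (PIPseq) from gonads of wild-caught, wild-type animals of unknown age, dissociated and enriched for live cells by flow sorting. The male group was 1 library of the male transformer stage, metamorphosed and with the sex determined. The larval group was 2 libraries, titled as biological replicates, of gonads not yet differentiated, with the sex not determined. The fourth library, of a female transformer, had only 14 barcodes that met the rule and was not compared. How many animals gave each library is not given in the sources used here, and male sex, metamorphosis and the single male library cannot be told apart.

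Germ cells carry the hereditary material, and in vertebrates they silence transposons with PIWI proteins and piRNAs, store and repress messenger RNA in germ granules, and pass through meiosis. In meiosis, DNA breaks are made and repaired between paired chromosomes, whose ends are tethered to the nuclear envelope. In lampreys the gonad of the larva is undifferentiated for a long time, and oocytes can appear in it before sex is settled. The question was which of these programmes differed between the germ cells of the male transformer and those of larvae.

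Barcodes taken as germ cells made up 72.1% of the called barcodes in the male library (exact 95% binomial interval 71.7 to 72.6%), against 4.92% in larval library 1 (4.62 to 5.23%) and 4.80% in larval library 2 (4.51 to 5.10%). Intervals here cover counting error only. These are shares of barcodes that met the rule, and the part of free RNA in them was not tested. The germ genes of the rule gave a median of 1371 CPM in male germ barcodes, against 2086 and 1990 in those of larval libraries 1 and 2. The male germ barcodes were shallower, with a median of 8622 counts, against 19072 and 22933. Their summed counts were 281370243 in the male library, against 30128653 and 35093867 in larval libraries 1 and 2, so that counting error is small for most genes named here.

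**Figure D1:**
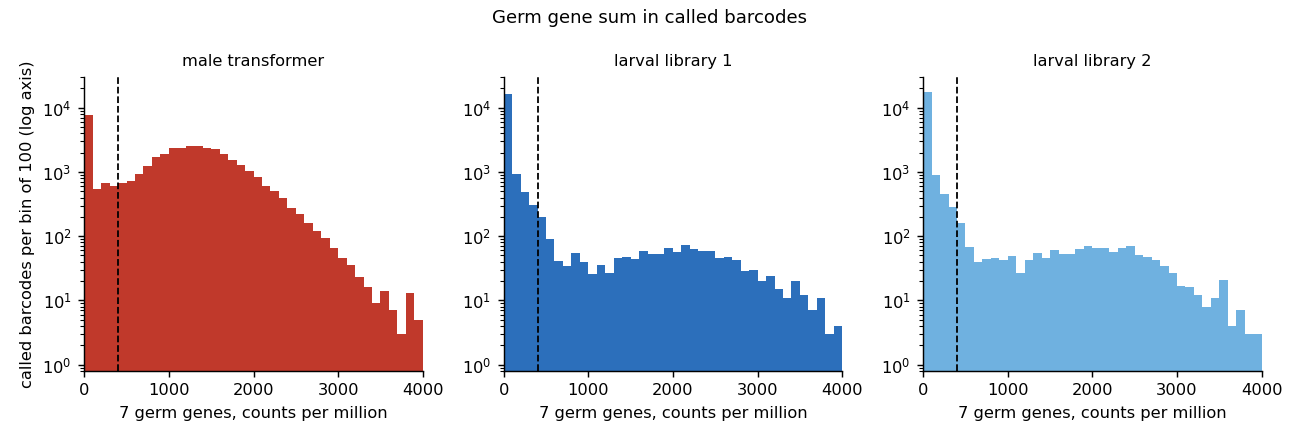
Called barcodes of the male library (left) and the 2 larval libraries (middle and right) by the sum of the 7 germ genes, in CPM (x axis); the y axis is the number of barcodes per bin of 100, on a log scale, before the oocyte limit and the minimum of 4 germ gene counts are applied. The dashed line is the limit of 400. The male library has a broad peak near its median of 1371, and the larval libraries have a small peak near 2000. Every library also has many barcodes with few or no germ gene counts. Under 50 CPM lay 7587 male barcodes and 15734 and 16707 larval ones.

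The germ label was checked against 11 germ cell markers found in the files that are not genes of the rule, TEX15 and PIWIL2 among them. Summed, they stood at 408 CPM in male germ barcodes and at 305 and 289 CPM in larval ones, against 187, 119 and 120 CPM in the other called barcodes of the same libraries, those below the germ gene limit. Barcodes without cells, with 10 to 100 counts, gave a sum of 447 CPM in the male library, more than its germ barcodes gave, against 160.0 and 169 CPM in the larval ones. Of the 11 markers, NANOS1 and SPO11 went the other way in larvae. NANOS1 stood at 42.7 and 43.4 CPM in larval germ barcodes and at 90.6 and 93.6 CPM in the other larval ones. SPO11 stood at 4.9 and 4.6 CPM, against 7.6 and 7.3 CPM. In the male library NANOS1 stood at 129 and 122 CPM. The oocyte markers outside the rule, CPEB1, MOS and ZAR1L, summed to 68.8 CPM in male germ barcodes and to 140 and 118 CPM in larval ones, against 18.1, 5.52 and 5.48 CPM in the other called barcodes and 77.6, 35.2 and 32.5 CPM in barcodes without cells. Only ZAR1L was lower in male germ barcodes than in both larval ones (16.9 CPM, against 91.8 and 75.3). CPEB1 was higher (51.7 CPM, against 47.9 and 42.0), and MOS stood at 0.214 CPM, against 0.171 and 0.413. The label "non-oocyte" is therefore used here for the limit on 5 genes only. The part of free RNA in these levels was not tested.

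Larval germ barcodes formed a range up to the oocyte limit. In larval barcodes without cells the 5 oocyte genes stood at 177 to 381 CPM (library 1) and 154 to 387 CPM (library 2). Larval germ barcodes had 121 to 419 and 114 to 426 CPM on the same plain scale. In the male library they stood at 2.14 to 7.54 CPM without cells and 0.217 to 1.04 CPM in germ barcodes. The part of free RNA in this range was not tested. Barcodes with 0.1 to 0.4% oocyte gene counts made up 23.3% and 23.1% of the germ barcodes of larval libraries 1 and 2 and held 44.2% and 42.2% of their counts, while 3 male barcodes lay in that range. Just inside the limit, at 0.3 to 0.4%, lay 0 male barcodes and 53 and 65 larval ones, and just outside, at 0.4 to 0.5%, lay 1 male barcode and 48 and 45 larval ones. At the germ gene limit, 189 male barcodes and 19 and 18 larval ones had 400 to 500 CPM, and 594 male and 298 and 282 larval ones had 300 to 400. Where it moved a fold change by over 1.5 times, the value is also given for barcodes with under 0.01% oocyte gene counts, a limit chosen after the data were seen, which kept 28649 male barcodes and 542 and 548 larval ones.

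Markers of other cells were low but unequal in germ barcodes. Markers of stroma summed to 68.0 CPM in the male library, against 180 and 134 CPM in the larval libraries, and those of renal tubule to 18.8 CPM, against 74.4 and 75.8 CPM. Markers of supporting cells summed to 122 CPM in the male library, against 60.2 and 62.7 CPM, and endothelial markers to 24.2 CPM, against 30.6 and 28.8 CPM. Most of the male sum for supporting cells came from TNNC1 (71.3 CPM, against 8.92 and 9.27) and LOC116945874 (26.3 CPM, against 8.61 and 9.42). UPK3A and FST were also higher in the male library. SFRP5 (9.47 CPM, against 25.7 and 27.9), WT1, CYP19A1, WIF1 and STAR were lower there, and EMX2 lay between the larval levels. A group of 7 genes at the NPRL3 locus summed to 37911 CPM in the other male barcodes and to 2367 and 2596 CPM in the other larval ones. It summed to 1670 CPM in male germ barcodes, against 188 and 150 CPM in larval ones. Of the group, LOC116951577 and LOC116951636 went the other way. They stood at 0.101 and 6.38 CPM in male germ barcodes. In larval germ barcodes LOC116951577 stood at 114 and 70.3 CPM, and LOC116951636 at 20.3 and 17.0 CPM. No marker found was at 0 in any library. Libraries shared between 6 and 13 called barcodes in pairs and 0 germ barcodes. Leaving out barcodes with at least 0.2% of counts from other cells' markers gave 5653 higher and 5057 lower genes, against 5666 and 5086 with them, and lowered TNNC1 and 5 unnamed genes, as given beside them.

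Counts were summed per library and 17810 genes outside the rule were tested with edgeR's quasi-likelihood test. The spread came from the larval pair alone, so that the p-values take the single male library to vary as the larval ones do. At a Benjamini-Hochberg adjusted p of 0.05, 5666 genes (31.8%) were higher and 5086 (28.6%) lower in male germ cells, 60.4% of all genes tested. The counts of called genes in each list below are to be read against these shares. DESeq2 called 4496 higher and 3032 lower. With so many calls the size of a difference says more than its call: 266 genes (1.49%) were at least 4-fold above both larval libraries and 664 (3.73%) at least 4-fold below both, while the larval libraries differed by 4-fold in 23 genes (0.129%). At equal depth the median absolute log2 ratio was 0.61 between the male library and larval library 1 and 0.60 to larval library 2. Larval library 2 to larval library 1 gave 0.15. A simulated pair that differed by the sampling of counts alone gave 0.10 at that depth, a value for comparison and not a part to be subtracted.

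The scale decides the direction of small differences. The log2 fold changes given here use TMM scaling, which sets libraries level on a trimmed mean of their gene ratios, and under which the median over all genes was −0.06. Scaling to total counts shifted them by −0.52 and gave 2888 higher and 9861 lower genes, and 127 and 1119 at least 4-fold above and below. Counts of called genes in a list on that scale are to be read against those 2888 and 9861 of 17810 genes. On that scale the median of every gene list described here was below 0, except those of mitochondrial genes, ribosomal proteins, the spliceosome, meiosis and ribosome biogenesis. With the 0.01% oocyte limit, 4320 of 15957 genes were higher and 3553 lower, and 129 and 425 were at least 4-fold above and below both larval libraries.

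**Figure D2:**
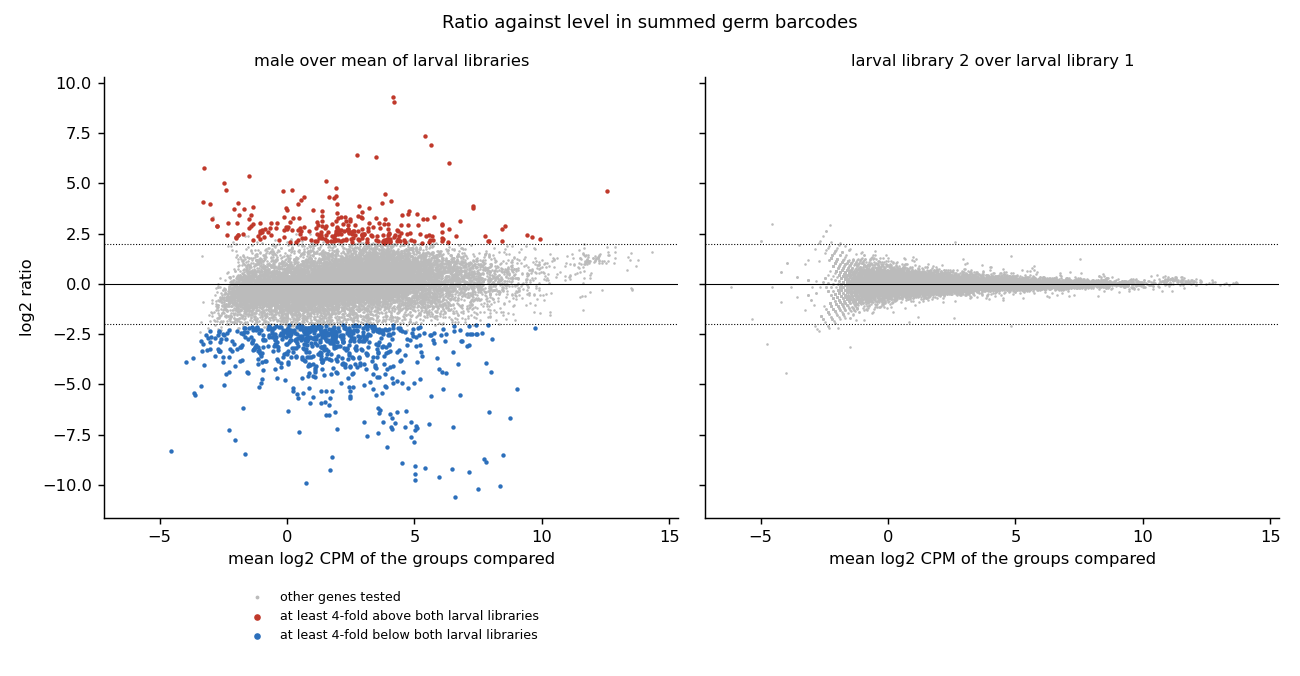
Log2 ratio (y axis) against mean log2 CPM (x axis) per gene, for the male library over the mean of the larval libraries (left) and for larval library 2 over larval library 1 (right). Red marks the 266 genes at least 4-fold above both larval libraries and blue the 664 at least 4-fold below both; dotted lines mark 4-fold, which 23 genes pass between the larval libraries.

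The 664 lower genes were for a large part genes more abundant in larval oocyte-like barcodes. They took 0.259% of the counts of male germ barcodes, against 10.3% and 9.94% of those of larval libraries 1 and 2, and 28.1% and 26.8% of the counts of the larval barcodes above the oocyte limit (252 and 294 barcodes). Of them, 353 genes (53.2%) were more abundant in those oocyte-like barcodes than in the germ barcodes in both larval libraries, against 15.2% of all genes tested. Under the 0.01% oocyte limit, 329 of the 592 still tested were at least 4-fold below both larval libraries. The 266 higher genes took 3.97% of the counts in male germ barcodes, against 0.483% and 0.496% in larval ones, and 110 of 245 passed the same fold with the 0.01% limit.

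The unnamed genes with the largest difference below the larvae were LOC116956110, LOC116956091, LOC116952542, LOC116937338 and LOC116956101, with log2 fold changes from −10.63 to −9.75 (edgeR adjusted p at most 2.17e-16). LOC116952542 stood at 10.02 CPM in the male library, against 10870.0 and 10364 CPM in larval libraries 1 and 2. In larval oocyte-like barcodes it stood at 24804 and 27135 CPM. LOC116956110 stood at 2.44 CPM in the male library, against 3628 and 4095 CPM. Both were far above the male level in each larval library, and with the 0.01% oocyte limit their log2 fold changes were −6.61 and −5.83. The other 3, LOC116956091, LOC116937338 and LOC116956101, had −5.50, −7.31 and −5.05 with that limit. LOC116956091 and LOC116956110 are neighbours in the gene table, as are the rule genes LOC116947082 and LOC116947083. LOC116956101 and LOC116956115, the latter an oocyte gene of the rule, lie among 5 successive genes there. Reads of such neighbours may be shared between near-identical copies.

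The 8 genes with a symbol named as lower in male germ cells were RBPMS, DNAJC12, XPNPEP2, TSPAN18, SOHLH2, PSMB1, FDPS and NFKBIA. RBPMS, an RNA-binding protein, stood at 0.642 CPM in the male library, against 127 and 119 CPM in larval libraries 1 and 2, and the male level lay far below both (log2 −7.58 ± 0.15 SE, edgeR adjusted p 1.34e-16). It stood at 230 and 209 CPM in larval oocyte-like barcodes, and its log2 fold change was −5.45 with the 0.01% oocyte limit. SOHLH2 (LOC116942903), which in the mouse drives the differentiation of spermatogonia and early oocytes, stood at 6.28 CPM in the male library, against 68.5 and 60.8 CPM (log2 −3.36 ± 0.13, adjusted p 7.66e-13). After thinning every barcode to 1875 counts, 0.982% of male germ barcodes had a SOHLH2 count, against 9.10% and 7.99% of larval ones. In the other called barcodes the shares were 0.312%, 0.450% and 0.378%, so that the share in male germ barcodes was above this background. SOHLH2 was also higher in larval oocyte-like barcodes, at 160 and 125 CPM, and its log2 fold change was −1.91 with the 0.01% limit.

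PSMB1, a proteasome subunit, stood at 6.68 CPM in the male library, against 66.9 and 62.9 CPM (log2 −3.28 ± 0.12, and −2.46 with the 0.01% limit). DNAJC12, a co-chaperone of aromatic amino acid hydroxylases, stood at 3.96 CPM in the male library, against 71.0 and 67.5 CPM (log2 −4.13 ± 0.13), and kept a log2 fold change of −4.10 with the 0.01% limit. XPNPEP2, an aminopeptidase, stood at 3.51 CPM, against 58.3 and 51.2 CPM (log2 −3.96 ± 0.14), but its log2 fold change was −0.96 with that limit. TSPAN18, a tetraspanin, moved likewise, with log2 −3.53 ± 0.12 and −1.53 with the limit. FDPS, which makes farnesyl diphosphate for sterol synthesis, stood at 27.4 CPM in the male library, against 192 and 196 CPM (log2 −2.82 ± 0.10, and −2.08 with the limit), and NFKBIA (LOC116947230), an inhibitor of NF-κB, at 9.99 CPM, against 68.5 and 65.4 CPM (log2 −2.74 ± 0.11). NFKBIA was more abundant in the other called barcodes of both larval libraries, at 1374 and 1245 CPM, than in their germ barcodes. The adjusted p of these 6 genes was at most 2.82e-12.

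**Figure D3:**
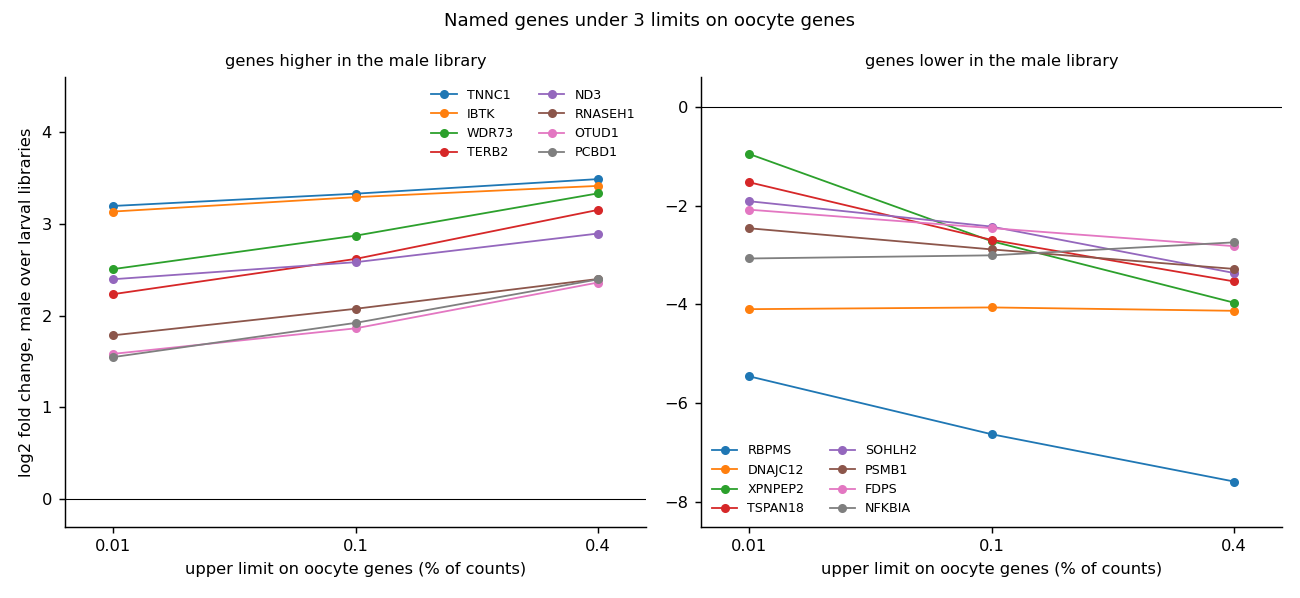
Log2 fold change of male over larval libraries (y axis) for the 8 named genes with a symbol in each direction, at 3 upper limits on the share of oocyte gene counts (x axis, ordered from strict to loose, not to scale). The genes higher in the male library (left) stay at or above 1.55, and the genes lower in it (right) move toward 0 with a stricter limit, XPNPEP2 to −0.96, while DNAJC12 and NFKBIA do not.

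The 8 genes with a symbol named as higher in male germ cells were TNNC1, IBTK, WDR73, TERB2, ND3, RNASEH1, OTUD1 and PCBD1. TERB2, a part of the complex that tethers chromosome ends in meiosis, stood at 329 CPM in the male library, against 37.2 and 36.7 CPM in larval libraries 1 and 2. The male level was 8.90-fold the larval one, and the larval levels were alike (log2 3.15 ± 0.09 SE, edgeR adjusted p 1.3e-14). At 1875 counts per barcode, 35.7% of male germ barcodes had a TERB2 count, against 9.72% and 8.90% of larval ones, and 7.28%, 0.803% and 0.813% of the other called barcodes. In male barcodes without cells TERB2 stood at 245 CPM, against 258 CPM in male germ barcodes on the same plain scale. Without thinning, the shares of germ barcodes were 83.5%, against 57.8% and 59.6%. The log2 fold change was 2.24 with the 0.01% oocyte limit and 2.47 with equal weight for each cell.

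RNASEH1, which removes RNA from RNA-DNA hybrids, stood at 505 CPM in the male library, against 95.03 and 96.1 CPM (log2 2.40 ± 0.09, and 1.79 with the 0.01% limit). WDR73, a WD-repeat protein, stood at 174 CPM, against 16.6 and 17.8 CPM (log2 3.33 ± 0.10, and 2.51 with the limit), and IBTK, known as an inhibitor of Bruton's tyrosine kinase, at 75.05 CPM, against 7.27 and 6.84 CPM (log2 3.41 ± 0.11). OTUD1, a deubiquitinase, and PCBD1, a pterin dehydratase, had log2 fold changes of 2.36 ± 0.10 and 2.40 ± 0.09, and of 1.58 and 1.55 with the limit. The adjusted p of these 5 genes was at most 1.69e-12, and in each the male library was above both larval ones and above the other called male barcodes. TNNC1, a calcium-binding troponin of heart and slow muscle, was also higher, at 90.7 CPM, against 7.78 and 8.39 CPM (log2 3.49 ± 0.11). It stood at 1592 CPM in the other called male barcodes and at 423 CPM in male barcodes without cells, and it is itself 1 of the markers of supporting cells. Without barcodes with at least 0.2% of counts from other cells' markers its log2 fold change was 2.41.

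The unnamed genes with the largest rise were LOC116951579, LOC116951566, LOC116951565, LOC116951657 and LOC116951551, with log2 fold changes from 6.30 to 9.32. All but LOC116951551 are themselves among the 7 genes at the NPRL3 locus used as markers of other cells. Without barcodes with at least 0.2% of counts from such markers, the log2 fold changes were 6.56, 5.97, 4.17, 3.82 and 3.51 in that order, and LOC116951579 had 8.25 with the 0.01% oocyte limit. LOC116951579 stood at 451 CPM in male germ barcodes, against 0.791 and 0.653 CPM in larval ones, and at 7007 CPM in the other called male barcodes. All 5 were more abundant in the other called male barcodes, with 2034 to 10371 CPM, than in the male germ barcodes, and in male barcodes without cells they stood at 491 to 2988 CPM. LOC116951657, LOC116951565, LOC116951566 and LOC116951551 lie among 6 successive genes in the gene table. Of the 266 higher genes, 30 (11.3%) were more abundant in the other called male barcodes, against 27.6% of all genes tested. Of the 664 lower genes, 370 (55.7%) were. Both sets were chosen by their level in male germ barcodes, which by itself lowers the first share and raises the second. Neither share can therefore show that a set belongs to germ cells. A long non-coding RNA gene, LOC116947610, took the most counts among the higher genes, at 29764 CPM in the male library, against 1160.2 and 1283 CPM (log2 4.61 ± 0.12), and it too was more abundant in the other called male barcodes, at 63547 CPM. It was named after its values were seen.

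Genes without a symbol that were higher in male germ barcodes and lower in the other male barcodes included LOC116941210, LOC116951997 and LOC116951683, picked after the values were seen. LOC116941210 stood at 61.3 CPM in the male library, against 0.970 and 0.547 CPM in larval libraries 1 and 2, and at 7.32 CPM in the other called male barcodes (log2 6.38 ± 0.17, edgeR adjusted p 1.55e-13). Its log2 fold change was 7.30 with the 0.01% oocyte limit. LOC116951997 stood at 70.5 CPM, against 3.75 and 4.44 CPM (log2 4.11 ± 0.12, and 2.90 with the limit), and LOC116951683 at 96.9 CPM, against 8.31 and 7.51 CPM (log2 3.62 ± 0.11). LOC116938199 and LOC116937913, with 1773 and 1593 CPM in the male library, were 5.03-fold and 5.43-fold higher than in the larvae and stood at 231 and 210 CPM in the other called male barcodes.

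The germ genes of the rule did not move as 1 block. PIWIL1, the PIWI protein that binds piRNAs, stood at 391 CPM in male germ barcodes, against 70.3 and 78.0 CPM in those of larval libraries 1 and 2. SYCP3, a component of the axis of meiotic chromosomes, stood at 238 CPM, against 91.9 and 102 CPM. LOC116944030 stood at 369 CPM, against 258 and 259 CPM, and LOC116937093 at 462 CPM, against 426 and 398 CPM. LOC116937268 went the other way, with 160 CPM in the male library and 461 and 441 CPM in the larval ones, and so did LOC116937269 and LOC116937220, with 107 and 136 CPM in the male library. Of the 7 genes LOC116937093 was the highest in male germ barcodes and LOC116937268 the highest in larval ones. Male barcodes without cells held PIWIL1 at 321.8 CPM, against 307.5 CPM in male germ barcodes on the same plain scale. SYCP3 stood at 127.5 CPM without cells, against 186.8 CPM. Summed in male barcodes without cells, PIWIL1 and SYCP3 alone were above the rule's 400 CPM. In larval barcodes without cells they were far below it. The part of free RNA in the germ gene levels was not tested. The 5 oocyte genes stood at 0.279 to 1.32 CPM in male germ barcodes, against 105 to 365 CPM in larval library 1 and 103 to 385 CPM in larval library 2.

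Genes of the piRNA pathway had calls in both directions. Of 15 found and tested, 6 (40.0%) were higher and 5 (33.3%) lower in male germ cells, against 31.8% and 28.6% of all genes tested, with a median log2 fold change of −0.02, against −0.06. ASZ1, a germ granule protein anchored at mitochondria, stood at 54.7 CPM in the male library, against 14.0 and 12.4 CPM (log2 2.06 ± 0.11). TDRD9, a helicase of the pathway, stood at 117 CPM, against 41.0 and 41.0 CPM (log2 1.51 ± 0.09), and TDRD7, a tudor protein of germ granules, at 173 CPM, against 67.7 and 65.9 CPM (log2 1.38 ± 0.09). In all 3 the male library was above both larval ones. Male barcodes without cells held ASZ1 at 54.74 CPM and TDRD9 at 120.8 CPM. On the same plain scale male germ barcodes held less, at 43.02 and 91.74 CPM. TDRD7 went the other way, at 114.97 CPM without cells and 136.35 CPM in male germ barcodes. In both larval libraries all 3 were lower without cells than in germ barcodes. The part of free RNA in these levels was not tested. FKBP6, a co-chaperone of the pathway, stood at 17.4 CPM in the male library, against 6.91 and 10.3 CPM. MAEL (0.55 ± 0.10) and TEX15 (0.25 ± 0.10) had smaller log2 fold changes, and TEX15 passed only just, with an edgeR adjusted p of 0.0454 and the opposite direction under scaling to total counts.

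The second PIWI protein, PIWIL2 (LOC116940246), went against the pathway's risers, with 3.41 CPM in the male library, against 11.7 and 10.5 CPM in the larval ones (log2 −1.70 ± 0.14). DDX4, the vasa helicase, stood at 4.38 CPM, against 11.9 and 10.6 CPM (log2 −1.36 ± 0.13). After thinning, 0.582% of male germ barcodes had a DDX4 count, against 2.38% and 1.11% of larval ones, and 0.446%, 1.15% and 1.02% of the other called barcodes, so that no difference in the share of cells can be read from them. PNLDC1 (LOC116943358), the trimmer of piRNA ends, stood at 20.3 CPM, against 45.9 and 39.0 CPM (log2 −1.06 ± 0.12), and HENMT1, which methylates those ends, at 37.1 CPM, against 51.7 and 55.0 CPM (log2 −0.52 ± 0.10). TDRD12 was lower by a log2 fold change of −0.49 ± 0.16, and TDRD1, EXD1, TDRKH and TDRD3 did not pass, with log2 fold changes from −0.25 to 0.08. With the 0.01% oocyte limit the counts were again 6 higher and 5 lower. With scaling to total counts 4 were higher and 10 lower, against 2888 and 9861 of all 17810 genes.

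**Figure D4:**
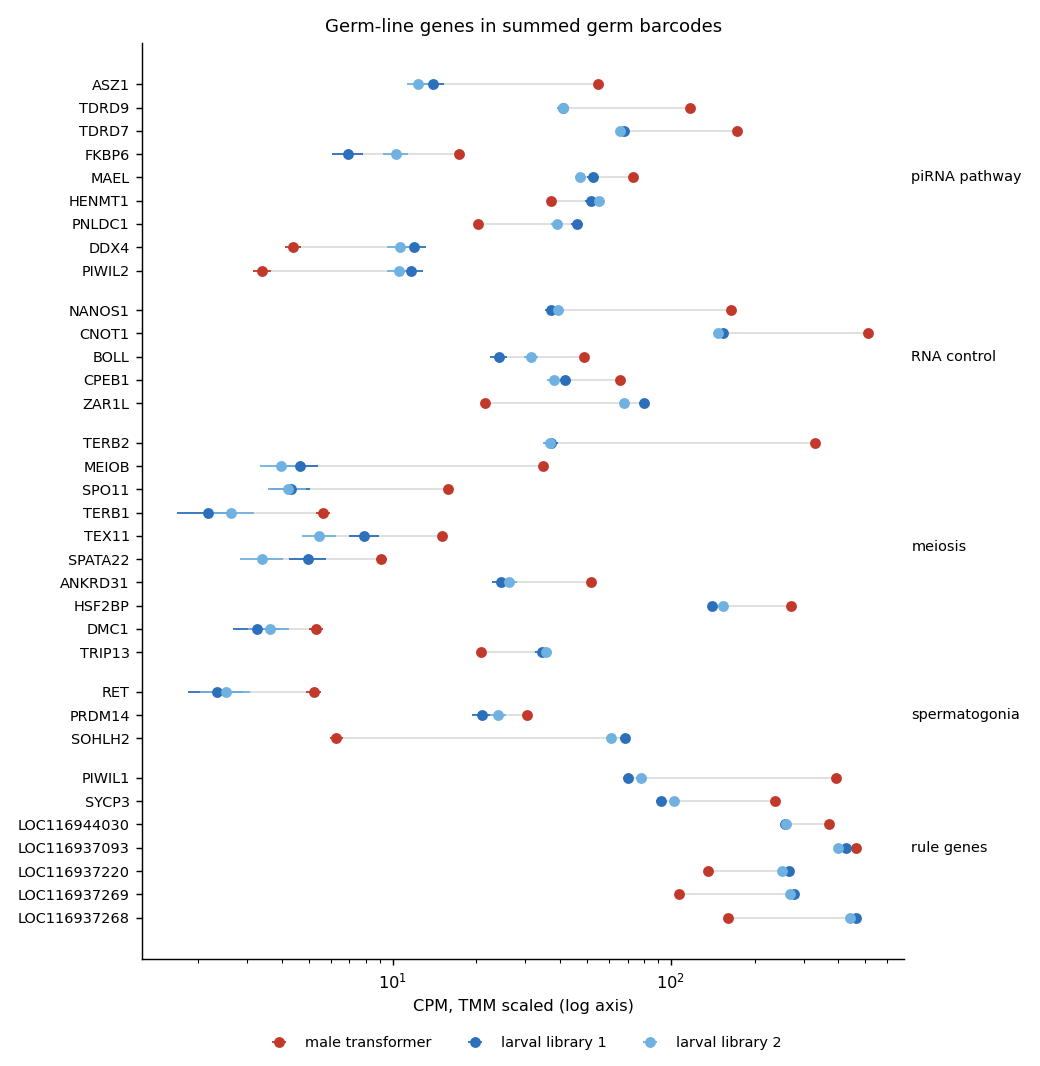
Level of germ-line genes in summed germ barcodes (x axis, TMM-scaled CPM, log axis) in the male library (red) and larval libraries 1 and 2 (dark and light blue), by gene list; bars are exact 95% Poisson intervals of the count and cover counting error only. The larval points lie close together for most genes, and the male point lies to the right for TERB2, MEIOB, NANOS1 and PIWIL1 and to the left for SOHLH2, PIWIL2, DDX4 and LOC116937268. PIWIL1 and LOC116937268 are among the rule genes that selected the barcodes and are shown as a description only.

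Regulators of messenger RNA were divided. Of 15 tested, 7 were higher and 3 lower, with a median log2 fold change of 0.06. With scaling to total counts 3 were higher and 7 lower, against 2888 and 9861 of all 17810 genes. CNOT1, the scaffold of the CCR4-NOT deadenylase, stood at 512 CPM in the male library, against 153 and 147 CPM in larval libraries 1 and 2 (log2 1.77 ± 0.09). NANOS1, a translational repressor of germ cells, stood at 164 CPM, against 37.2 and 39.2 CPM (log2 2.10 ± 0.09, and 1.41 with the 0.01% limit), but the other called barcodes held it as well, at 122 CPM in the male library and 90.6 and 93.6 CPM in the larval ones. Male barcodes without cells held NANOS1 at 136 CPM, against 129 CPM in male germ barcodes on the same plain scale. BOLL and CPEB1, regulators of translation, had log2 fold changes of 0.81 ± 0.13 and 0.72 ± 0.10, and TRIM71, DDX6 and YBX1 ones of 0.60, 0.31 and 0.22. ZAR1L, of a family known from maternal mRNA in oocytes, stood at 21.5 CPM in the male library, against 79.9 and 68.0 CPM (log2 −1.78 ± 0.12, and −0.70 with the limit), and MEIOC (LOC116938562), a factor for meiotic entry in the mouse, at 0.780 CPM, against 1.87 and 1.83 CPM (log2 −1.23 ± 0.22). BOLL, MEIOC and TRIM71 (LOC116944281) changed sign with the 0.01% limit, BOLL to −0.20, where 4 of 13 were higher and 2 lower.

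Few genes of spermatogonia were found, 6 in all. RET, the receptor for a niche growth factor, stood at 5.21 CPM in the male library, against 2.34 and 2.52 CPM (log2 1.10 ± 0.16), and PRDM14, known from primordial germ cells of the mouse, at 30.4 CPM, against 20.9 and 23.9 CPM (log2 0.44 ± 0.11). PRDM14 had much the same level in other called barcodes, at 20.9 CPM in the male library and 18.7 and 22.0 CPM in the larval ones. LHX1 was lower (log2 −0.49 ± 0.14), as was SOHLH2, described above, and PAX7 and TSPAN33 did not pass, with log2 fold changes of −0.25 and −0.40.

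Genes of meiosis were higher in 16 of 28 cases (57.1%) and lower in 6 (21.4%), against 31.8% and 28.6% of all genes tested. Their median log2 fold change was 0.62, against −0.06 over all genes tested. MEIOB and SPATA22 are partners that bind single-stranded DNA at meiotic breaks. MEIOB stood at 34.6 CPM in the male library, against 4.64 and 3.96 CPM (log2 3.02 ± 0.12, edgeR adjusted p 1.29e-12), and SPATA22 at 9.10 CPM, against 4.97 and 3.4 CPM (log2 1.13 ± 0.17, adjusted p 7.36e-05). The larval libraries were apart in SPATA22, and its log2 fold change was 0.23 with the 0.01% limit and 0.085 with equal weight for each cell, where MEIOB had 1.72. At 1875 counts per barcode, 4.37% of male germ barcodes had a MEIOB count, against 1.14% and 1.11% of larval ones, and 0.982%, 0.244% and 0.269% of the other called barcodes.

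Among genes for meiotic breaks, SPO11, ANKRD31 and REC114 were higher, while MEI1 did not pass (log2 0.13). SPO11, the enzyme that cuts DNA in meiosis, stood at 15.8 CPM in the male library, against 4.31 and 4.20 CPM (log2 1.90 ± 0.12), yet the other called barcodes held 8.39, 7.61 and 7.28 CPM of it, above the larval germ barcodes. At 1875 counts per barcode, 2.15% of male germ barcodes had a SPO11 count, against 1.86% and 0.708% of larval ones, and 1.48%, 1.16% and 1.03% of the other called barcodes, so that the share of cells gives no clear difference. ANKRD31, which places breaks in the mouse, stood at 51.6 CPM in the male library, against 24.5 and 26.3 CPM (log2 1.02 ± 0.10, and 0.39 with the 0.01% limit), and REC114, its partner, at 2.04 CPM, against 0.881 and 1.27 CPM (log2 0.93 ± 0.23). The telomere tether was split, for TERB1 rose with TERB2 (log2 1.24 ± 0.16), whereas MAJIN, the membrane part of the same complex, stood at 13.2 CPM, against 20.3 and 21.1 CPM (log2 −0.65 ± 0.11).

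Strand exchange was split as well. DMC1, the recombinase of meiosis, stood at 5.31 CPM in the male library, against 3.27 and 3.61 CPM (log2 0.63 ± 0.15). The DMC1 helpers PSMC3IP and MND1 were lower, with log2 fold changes of −0.44 ± 0.11 and −0.48 ± 0.12, and HSF2BP, which brings BRCA2 to meiotic breaks, was higher, at 269 CPM, against 141 and 154 CPM (log2 0.87 ± 0.09). Of the crossover factors, TEX11 (1.18 ± 0.17, and 0.22 with the 0.01% limit) and MLH3 (0.93 ± 0.11) were higher, while the ATPase TRIP13 (−0.75 ± 0.11) was lower. The remaining genes called higher were SUN1, MSH5, CNTD1 (LOC116943966), MCMDC2 and RAD51C, the last 4 at under 3 CPM in the male library. EXO1, BRCA2, MEI1 (LOC116946073), MUS81 and SHOC1 did not pass, with log2 fold changes from −0.13 to 0.17.

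The meiosis list depended on the oocyte limit more than any other germ-line list. With the 0.01% limit 8 of the 28 genes were higher and 7 lower, near the share of all genes there (4320 and 3553 of 15957). The median was 0.14, against −0.04 over all genes, and DMC1 had a log2 fold change of −0.07. TERB2 and MEIOB stayed above log2 2, at 2.24 and 2.03, and SPO11 had 0.93 (1.21 with equal weight for each cell). With scaling to total counts 10 of the 28 were higher and 10 lower, where 2888 of all 17810 genes were higher and 9861 lower. REC8, the meiotic cohesin, was near the lower end of what the counts can measure, with 121 counts in the male library and 27 and 25 in the larval ones, and did not pass.

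Ribosomal protein genes were higher almost without exception. Of 72 tested, 70 were higher and 0 lower, and the median log2 fold change was 1.14, against −0.06 over all genes. Together they took 34.1% of the counts of male germ barcodes, against 20.5% and 22.2% in larval libraries 1 and 2. RPL31, of the large subunit, stood at 13144 CPM in the male library, against 4231 and 4526 CPM (log2 1.59 ± 0.11), and the male level was above both larval ones. Per barcode the middle 80% of male germ barcodes had a ribosomal share of 27.7 to 36.6%, a narrower band than the 13.3 to 29.2% and 14.7 to 32.0% of larval ones. RPL6 did not pass, with 26.7 CPM in the male library, against 29.9 and 28.8 CPM. Other called barcodes moved in the same direction, with a list median of 0.34 on the scale of total counts, against −0.56 over all genes, where germ barcodes had 0.62 against −0.58. With the 0.01% limit 67 were higher and 0 lower, with a median of 0.87.

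The machinery that makes ribosomes and splices RNA was higher in most members. Of 72 genes of ribosome biogenesis 47 were higher and 8 lower, with a median log2 fold change of 0.60. GAR1, of the box H/ACA particles that modify ribosomal RNA, stood at 65.7 CPM in the male library, against 15.5 and 14.7 CPM (log2 2.12 ± 0.10), and NOC2L at 55.4 CPM, against 16.3 and 15.3 CPM (log2 1.81 ± 0.10). Of 52 spliceosome genes 36 were higher and 9 lower, with a median of 0.65, among them LSM7 at 689 CPM, against 210 and 206 CPM (log2 1.73 ± 0.09). Of 50 translation factors 24 were higher and 6 lower, with a median of 0.25. With the 0.01% limit the 3 medians were 0.47, 0.73 and 0.45. With scaling to total counts the spliceosome had 24 higher and 17 lower, and the translation factors 13 and 23. On that scale 2888 of all 17810 genes were higher and 9861 lower.

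All 13 mitochondrial genes of the electron transport chain and ATP synthase were higher. Their median log2 fold change was 1.89, and they took 2.32% of all counts in male germ barcodes, against 1.10% and 1.13% in larval ones. ND3, a subunit of complex I, stood at 1019.9 CPM in the male library, against 122 and 152 CPM (log2 2.90 ± 0.12), ND4, also of complex I, at 2128 CPM, against 444 and 467 CPM, and COX3, of complex IV, at 4254 CPM, against 2113 and 2099 CPM. With the 0.01% limit ND4 and COX3 had log2 fold changes of 1.59 and 0.36. The other called barcodes gave a list median of 0.09 on the scale of total counts, against −0.56 over all genes, where the germ barcodes gave 1.37 against −0.58. All 13 were also higher under the 0.01% oocyte limit, with a median of 1.33. The nuclear genes of oxidative phosphorylation were divided, with 30 of 58 higher and 16 lower and a median of 0.27: UQCR11 (LOC116950842) had a log2 fold change of 1.74 ± 0.09 and NDUFV1 one of −1.73 ± 0.10 (−0.69 with the limit). The mitochondrial ribosome had 30 of 74 higher and 21 lower.

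Cell division genes were lower more often than all genes, and DNA replication genes were near the share of all genes in each direction. Of 39 mitosis genes 10 (25.6%) were higher and 19 (48.7%) lower, with a median of −0.36. SPC24, of the kinetochore, stood at 19.5 CPM in the male library, against 56.6 and 61.7 CPM (log2 −1.60 ± 0.11), though its log2 fold change was −0.27 with the 0.01% limit, where 3 of 38 were higher and 12 lower. Of 55 replication genes 20 (36.4%) were higher and 20 lower, against 31.8% and 28.6% of all genes. Those higher included UHRF1 and LIG1, which act in the copying of DNA methylation and in the joining of nicks, at 79.8 CPM, against 26.8 and 26.8 CPM, and at 153 CPM, against 64.3 and 72.3 CPM. Those lower included GINS4, of the replicative helicase, and thymidine kinase TK1, with log2 fold changes of −1.26 ± 0.11 and −1.01 ± 0.10. With the 0.01% limit UHRF1 had 0.91, LIG1 0.53 and GINS4 −0.66.

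Repair and chromatin genes were more often higher than lower with TMM scaling. With scaling to total counts 19 repair genes were higher and 26 lower, and 9 and 14 chromatin genes. On that scale 2888 of all 17810 genes were higher and 9861 lower. Of 64 repair genes 31 were higher and 16 lower, with a median of 0.29. CHEK1, the checkpoint kinase, stood at 52.5 CPM in the male library, against 13.5 and 14.2 CPM (log2 1.92 ± 0.10), and PARP2 at 165 CPM, against 50.7 and 47.4 CPM (log2 1.75 ± 0.09). The largest change in the list was in the other direction, in APEX1, an endonuclease of base excision repair, at 0.775 CPM, against 8.16 and 8.52 CPM (log2 −3.43 ± 0.17, and −2.10 with the 0.01% limit), named after its values were seen. Of 35 chromatin modifiers 20 were higher and 7 lower, with a median of 0.41, among them the methyltransferase SUV39H2 (1.09 ± 0.10) and the remodeller HELLS (1.12 ± 0.10), which stood at 0.44 and 0.29 with the 0.01% limit. Of 18 genes of apoptosis 7 (38.9%) were higher and 5 (27.8%) lower, against 31.8% and 28.6% of all genes. CASP2 was at log2 1.75 ± 0.11 and AIFM1 at −0.57 ± 0.11.

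Genes of cilia and the axoneme, from which a sperm tail is built, were higher in 67 of 134 cases and lower in 18, with a median of 0.36. DNAL1, a dynein light chain, stood at 289 CPM in the male library, against 72.3 and 79.5 CPM (log2 1.93 ± 0.09), and CEP164, of the distal appendages of centrioles, at 166 CPM, against 62.9 and 65.2 CPM (log2 1.37 ± 0.09). With the 0.01% limit DNAL1 and CEP164 had log2 fold changes of 1.23 and 0.78. There 49 of 127 genes of the list were higher and 15 lower, against 4320 and 3553 of all 15957 genes. With scaling to total counts 38 were higher and 53 lower, against 2888 and 9861 of all 17810 genes. Of 13 genes known from spermatids 7 (53.8%) were higher and 3 (23.1%) lower, with a median of 0.50, nearly all at under 35 CPM. Of 32 kinesin, dynein and tubulin genes 14 were higher and 8 lower.

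Sterol and lipid genes were lower in 15 of 30 cases and higher in 9, with a median of −0.47. Besides FDPS, the sterol isomerase EBP stood at 46.4 CPM in the male library, against 145 and 140 CPM (log2 −1.62 ± 0.10). MSMO1, a demethylase of the same route, had a log2 fold change of −1.16 ± 0.10. With the 0.01% oocyte limit EBP had −1.65 and MSMO1 −1.79, farther from 0 than without it, and 17 of 29 genes were lower and 5 higher. Those higher included HADHB, of fatty acid oxidation, at 63.2 CPM, against 30.1 and 31.0 CPM, and SCAP, the sterol-sensing escort of the transcription factor SREBP, at 19.1 CPM, against 9.78 and 8.36 CPM.

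Of the signalling genes, WNT11 had the lowest log2 fold change. Of 11 Notch, hedgehog and FGF genes tested, 0 were higher and 6 (54.5%) lower, against 31.8% and 28.6% of all genes, with a median of −0.51. JAG1 (LOC116939414) was the one with the highest level, at 16.0 CPM in the male library, against 29.7 and 28.5 CPM (log2 −0.86 ± 0.11, and −0.14 with the 0.01% limit, where 1 of the 8 genes tested was lower). Of 24 Wnt genes 3 were higher and 7 lower, among them CTNNB1, the effector beta-catenin, at 58.0 CPM, against 148 and 146 CPM (log2 −1.34 ± 0.10). The ligand WNT11, named after its values were seen, stood at 1.23 CPM in the male library, against 27.6 and 26.5 CPM, far below both (log2 −4.46 ± 0.14, and −4.02 with the 0.01% limit). Of 17 TGF-beta and BMP genes 6 were higher and 2 lower. The sex and somatic gonad genes, 7 in all, stood at 0.374 to 7.12 CPM in the male library, with 2 higher and 2 lower. Of 6 retinoid genes only RBP4, a retinol carrier, was higher, at 217 CPM, against 59.6 and 64.9 CPM (log2 1.80 ± 0.09, and 0.98 with the limit), and it was more abundant in the other called male barcodes, at 368 CPM.

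The remaining lists had counts in both directions, to be read against 31.8% higher and 28.6% lower over all genes. Solute carriers, at 31.1% and 28.9%, and proteasome genes, at 30.8% each, were near that share. Of 29 matrix and adhesion genes 7 were higher and 12 lower, of 135 solute carriers 42 and 39, of 55 chaperones 24 and 19, of 39 proteasome genes 12 and 12, of 16 tRNA synthetases 6 and 5, and of 7 genes of glycolysis 1 and 4. Single members moved more than the lists: SLC35B2, a carrier of the sulphate donor, stood at 19.97 CPM, against 118 and 115 CPM (log2 −2.54 ± 0.11, and −1.22 with the 0.01% limit), HSPA5, the chaperone of the endoplasmic reticulum, at 31.9 CPM, against 123 and 121 CPM (log2 −1.94 ± 0.10), and HSPE1, of the mitochondrial matrix, at 1566 CPM, against 440 and 487 CPM (log2 1.76 ± 0.10). SPARC, a matrix protein that is abundant in other called barcodes, at 559.6 CPM in the male library and 1244 and 1271 CPM in the larval ones, was lower in germ barcodes (log2 −0.49 ± 0.11). Of 5 heat and stress genes HSPA8 was higher (0.69 ± 0.12) and 3 were lower, the phosphatase DUSP1 (at 10.07 CPM, against 21.4 and 18.9 CPM) besides HSPA5 and NFKBIA.

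**Figure D5:**
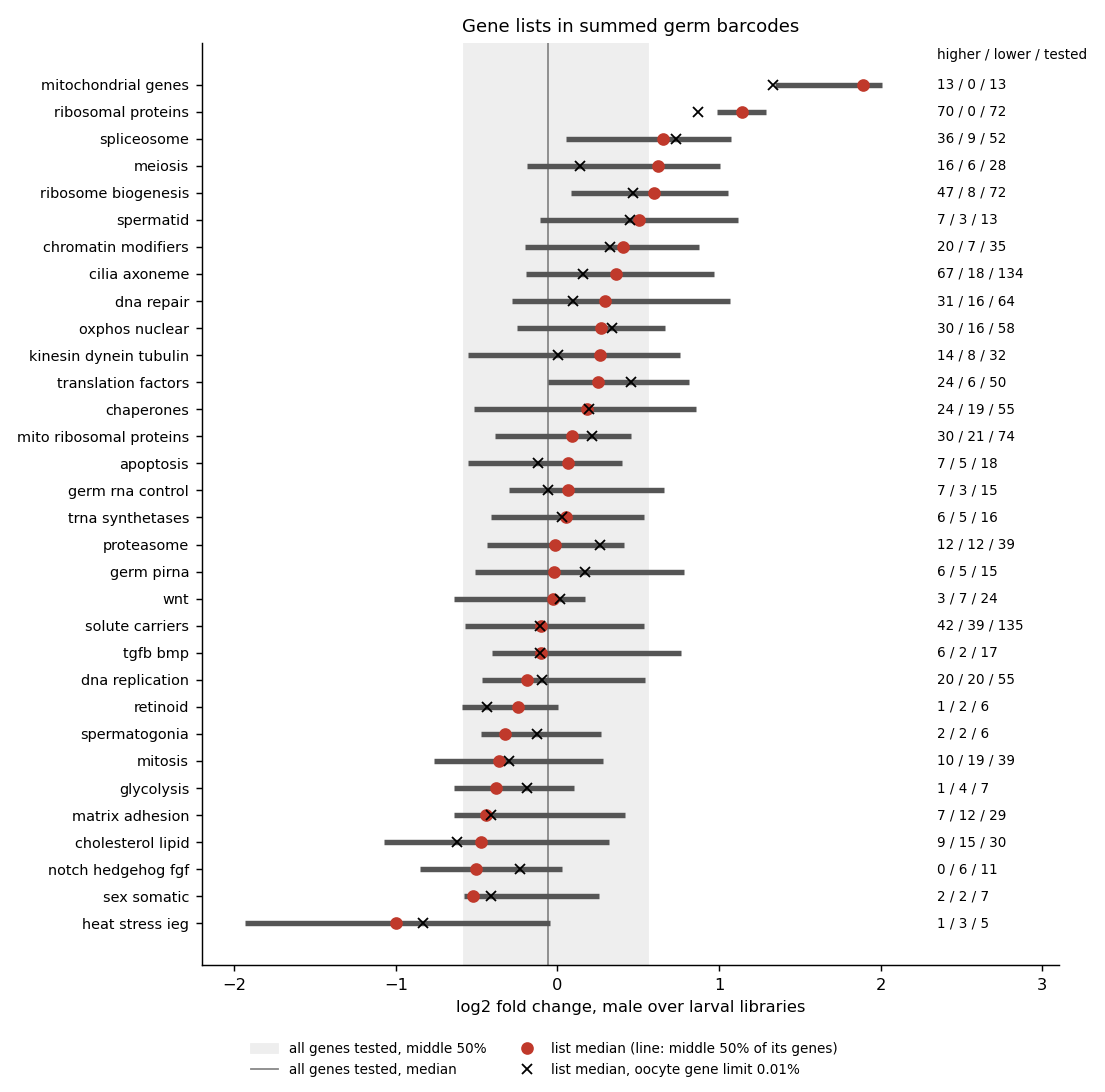
Median log2 fold change of male over larval libraries (x axis) for each gene list (red points; grey lines span the middle 50% of its genes), with black crosses for the median at the 0.01% oocyte limit and grey shading for the middle 50% of all genes tested. Numbers at the right count the genes higher, lower and tested. Mitochondrial and ribosomal protein genes lie far to the right at medians of 1.89 and 1.14, most lists lie inside the shading, and the 5 heat and stress genes lie lowest; scaling to total counts moves every point to the left by about 0.52.

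Male germ barcodes were more uniform and less complex than larval ones. Thinned to 1875 counts, the median male germ barcode had 687 genes, against 818 and 805 in larval libraries 1 and 2, and the middle 80% spanned 627 to 748 genes, against 729 to 933 and 708 to 917. Other called barcodes, thinned likewise, also had fewer genes in the male library, with a median of 560, against 673 and 658. Lower complexity was therefore not confined to the germ barcodes of the male library. Depth per barcode spanned 5133 to 15806 counts in the middle 80% of male germ barcodes, against 4646 to 87472 and 5719 to 91544. Larval germ barcodes ranged up to the oocyte limit, and how far this widened their spread was not tested. In these summed counts, fewer cells with an RNA and less of it per cell cannot be told apart.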

How the data were processed

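The deposited matrices hold whole-number counts per gene and barcode, per the file headers. The authors' aligner, counter, genome build and annotation, and whether a count is a molecule or a read, are not given in the sources used here. Gene names came from the files and, for LOC numbers, from the gene table of UKy_Petmar_22M1.pri1.0, where 11871 of 13987 matched and 688 had a symbol. The 24 features without a gene name, which held 5.23% of male and 3.23% and 3.49% of larval germ counts, stayed out of sums and tests.

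The count minimum of 1875 was 5 times the largest library background. No doublet caller was run. An alternative left out the 5% deepest barcodes. Barcodes without cells had 10 to 100 counts, and other called barcodes failed the germ rule. The share of barcodes with a count was thinned to 1875 counts.

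Per library, germ barcode counts were added up, and genes were tested by edgeR 4.0.16 in R 4.3.3 (TMM, filterByExpr, robust quasi-likelihood, two-sided, Benjamini-Hochberg over all genes tested), with 1 residual degree of freedom from the larval pair. An SE is the log2 fold change over the square root of F. P-values measure only the spread between these libraries. CPM are TMM-scaled with 0.5 added to each count, except in other called, oocyte-like and cell-free barcodes and in marker sums, where they are plain. DESeq2 1.42.0 was an alternative. The test was checked on simulated counts, in which the male library was drawn with the same fitted spread as the larval ones. That check cannot show whether the real male library varies as they do.

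Named genes had at least 50 CPM in the higher group and were ranked by the smaller of the 2 log2 ratios: 8 with a symbol and 5 without in each direction. All members of the piRNA, RNA control, spermatogonia and meiosis lists, and up to 4 members of each other list with the largest change, were also named, except a few genes that are not reported here; exceptions chosen after their values were seen are HADHB, SCAP, JAG1, ND4, COX3 and DUSP1 and those marked in the text. The cells, the comparison and the 31 gene lists were chosen with earlier results of these data known.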

Additional observations from a re-analysis of the deposited data

Results flagged for a closer look

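The 24 features without a gene name, which no comparison used, took 5.23% of the counts of germ barcodes in the male library, against 3.23% and 3.49% in larval libraries 1 and 2. They were looked at because they lie outside the genes tested and were higher in the male library than in both larval ones. A single feature, unassigned_gene_5, held 4.72% in the male library, against 2.92% and 3.14%. No gene is assigned to it in the files.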

How the results depend on the processing

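No paired analysis was possible because the male group is 1 library, to which the labels give no replicate number. Scaling to total counts gave 2888 higher and 9861 lower genes, and 127 at least 4-fold above and 1119 at least 4-fold below both larval libraries; DESeq2 gave 3032 lower genes. Under the 0.01% oocyte limit 129 genes were at least 4-fold above and 425 below. With equal weight for each cell 158 were above and 604 below, and 22 of 167 named genes moved by over 1.5 times, 20 of them nearer to 0, among them TERB2 (2.47), MEIOB (1.72), TEX11 (0.38), SPATA22 (0.085), SPO11 (1.21), NANOS1 (1.49) and SOHLH2 (−2.70); NFKBIA (−3.60) was farther from 0. Without 1 larval replicate there were 317 to 339 genes at least 4-fold above both larval libraries (here the remaining one) and 748 to 752 genes at least 4-fold below both larval libraries, and the median absolute log2 ratio was 0.60 to 0.61, with no test since no spread is left.

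The share of called barcodes taken as germ cells was 82.6% in the male library and 6.42% on average in the larval ones with the count minimum doubled, and 55.7% and 4.08% with the germ gene minimum doubled. It was 71.2% and 2.71% with the 0.01% oocyte limit, 68.5% and 4.62% without the 5% deepest barcodes, and 69.8% and 4.74% without barcodes with markers of other cells. With a 0.1% oocyte limit the larval share was 3.74%.

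Of the named genes, the log2 fold changes that turned round were small. With scaling to total counts they were −0.27 for TEX15, −0.21 for DDX6, −0.30 for YBX1, −0.076 for PRDM14, −0.26 for CCNB2 and −0.21 for DIABLO. Under that limit of 0.01% they were −0.20 for BOLL, 0.15 for MEIOC (LOC116938562), −0.056 for TRIM71 (LOC116944281), −0.070 for DMC1 and −0.29 for CCNB2. CCNB2 also had −0.0034 with the 0.1% limit and −0.061 with equal weight for each cell. The causes were not tested.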
